A study of Mus musculus with 6 samples.

Results

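Small nucleolar RNAs (snoRNAs) work as ribonucleoprotein particles (snoRNPs) with a fixed set of core proteins, and the genes of those proteins were followed here as a group of 10. They were named as the core and assembly proteins of snoRNPs after lower snoRNAs had been seen in these data, and no measured value of the 10 genes themselves was part of the rule. They comprised the C/D core genes Fbl, Nop56, Nop58 and Snu13, the U3-specific gene Rrp9, the H/ACA core genes Dkc1, Nhp2, Nop10 and Gar1, and the H/ACA assembly factor Naf1. The table held 42450 genes, 18905 of them were tested, and all 10 snoRNP genes were among those tested. The question was whether lower snoRNA levels went with lower mRNA levels of the proteins that hold snoRNAs. Protein amounts were not measured.

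The data were total RNA profiles of mouse embryonic stem cells, with 3 libraries of the parental line E14tg2a.4 (WT) and 3 of a heterozygous derivative (Srrm2+/-, titled Srrm2 hKO and described as SRRM2_KO in the labels). SRRM2 is a splicing-related protein of nuclear speckles. The Srrm2+/- line is a single gene-trap line with a cassette in exon 1 of Srrm2 in 1 allele, and both lines were kept on gelatin with LIF and moved to serum-free medium with LIF before RNA was taken. Replicates were separately frozen batches of each line at different passages, so p-values measure the spread between these batches, and the effect of the allele cannot be told apart from other differences between the lines, passage number included.

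In C/D particles, fibrillarin (Fbl) is the enzyme that methylates ribosomal RNA on the ribose, Nop56 and Nop58 form the scaffold, and Snu13 binds the kink-turn of the RNA first. In H/ACA particles, dyskerin (Dkc1) is the enzyme that converts uridine to pseudouridine, and Nhp2, Nop10 and Gar1 complete the particle. Naf1 holds the place of Gar1 during assembly and is then exchanged for it. Most mammalian snoRNAs are cut from introns of host genes, several of which encode snoRNP or ribosomal proteins, and embryonic stem cells express this machinery at high levels for ribosome production.

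Libraries held 54151433 to 69933421 estimated counts. Srrm2 itself was at 95.7 ± 3.94 CPM in WT and 59.3 ± 3.02 in Srrm2+/- (CPM are counts scaled to a common library size, SD, n = 3), which edgeR put at -0.69 on the log2 scale (SE 0.05, adjusted p = 2.38e-05). Of all tested genes, 25.3% passed an adjusted p of 0.05, with 13.6% higher and 11.7% lower in Srrm2+/-, and 41.4% had groups that did not overlap. snoRNA genes took 0.491 to 0.674% of counts in WT and 0.316 to 0.380% in Srrm2+/-. The stem cell marker list had 5 of 8 genes lower and 1 (Utf1) higher, and its summed level was 5058 to 5241 CPM in WT and 4426 to 4537 in Srrm2+/-. Summed trophectoderm markers lay at 68.8 to 72.9 CPM in WT and 269 to 299 in Srrm2+/- (3 of 6 tested genes higher, 1 lower). That sum followed the keratins Krt8 (mean 8.73 and 126 CPM) and Krt18 (9.21 and 127), which other epithelial cells also express, while Tfap2c was lower (50.6 and 30.8), Eomes was higher (0.567 and 0.987), and Gata3 and Elf5 did not pass the test. Summed fibroblast markers lay at 3.21 to 3.34 and 6.66 to 10.4 CPM (4 of 5 higher), neural markers at 80.5 to 86.8 and 58.4 to 60.9 (1 of 4 higher, 2 lower), and primitive endoderm markers at 2.32 to 2.70 and 2.54 to 3.57 (1 of 5 higher). None of the listed markers was at 0 in all libraries, though Cdx2, Dcn and Neurog2 had 0 counts in every WT library. The part of these shifts in the results below was not tested, and in bulk RNA fewer cells of a type and less RNA per cell cannot be told apart.

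The snoRNP genes did not move as a block. Dkc1 and Nop56 were lower in Srrm2+/-, Naf1 and Nhp2 were higher, and the remaining 6 genes did not pass the test. The 4 called genes of 10 stand beside 25.3% of all tested genes, and the 5 genes whose groups did not overlap stand beside 41.4%. The median log2 fold change of the 10 genes was 0.04, and their median absolute change was 0.10. Over all tested genes the median absolute change was 0.19, and over the 5770 protein-coding genes expressed at least as highly as the lowest of the 10 it was 0.10. Of those 5770 genes, 1915 were called and 2920 had groups that did not overlap. Beside these shares, the counts of 4 and 5 among 10 are not a result about the group. These genes were deeply covered, with 1196 to 53549 counts per gene and library and standard errors of 0.04 to 0.07 on the log2 scale. Sequence shared with other genes limits some of these counts, since the counting divides shared reads. Of the 31-base words of annotated transcripts, 22.4% of those of Nop56, 21.8% of those of Fbl, 15.2% of those of Naf1 and 13.8% of those of Snu13 also occur in other genes, and 5.19% of those of Nop10, with less for the other 5. Antisense neighbours overlap Nop56 (Idh3b, 5 bases), Dkc1 (Mpp1, 45 bases), Nhp2 (Rmnd5b, 44 bases) and Rrp9 (Parp3, 987 bases). Whether strand was used in counting is not given in the sources used here, and the neighbours' own counts came to at most 25.3%, 6.71%, 33.3% and 2.82% of those of the 4 snoRNP genes in the same order.

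**Figure D1:**
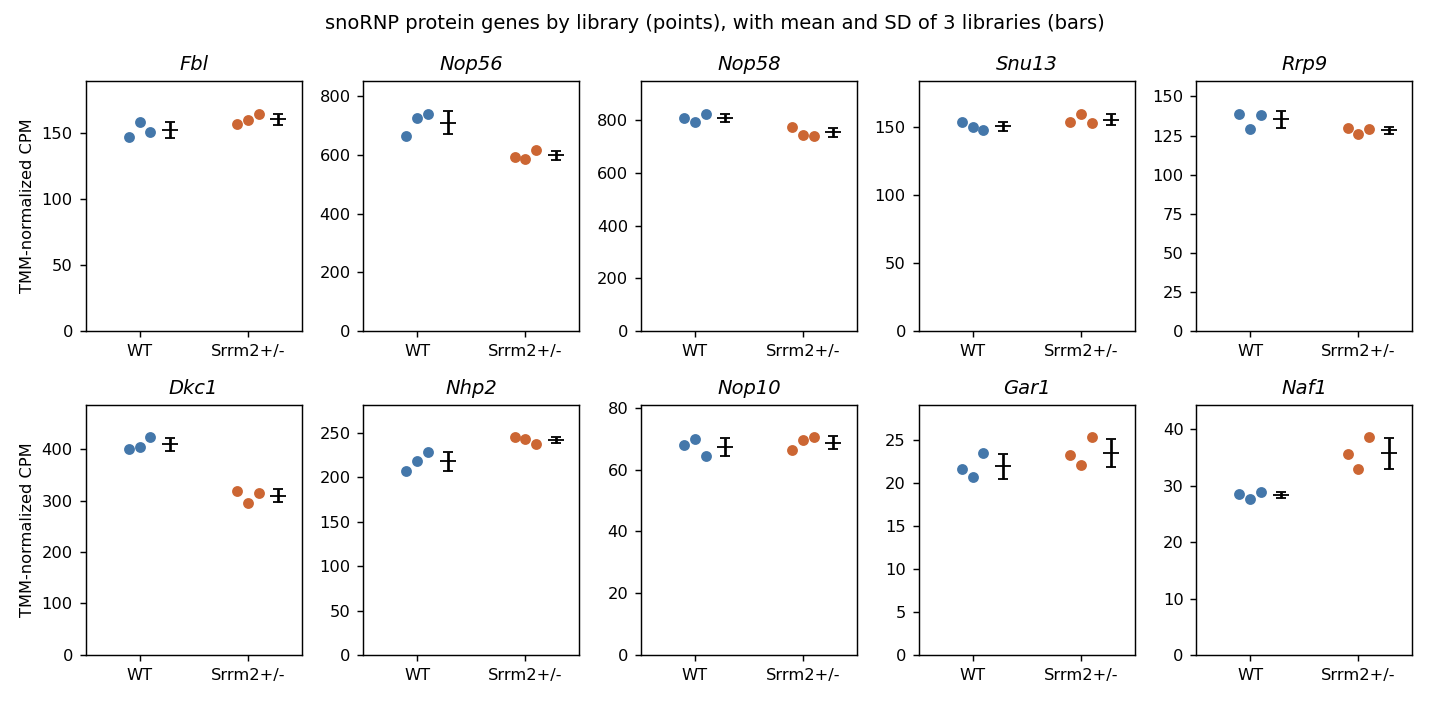
Normalized CPM of the 10 snoRNP genes in each of 3 WT and 3 Srrm2+/- libraries (points), with the mean and SD of each group (bars, n = 3), each panel with its own axis from 0. Dkc1, Nop56 and Nop58 lay lower in every Srrm2+/- library than in any WT library, though Nop58 was not called. Naf1 and Nhp2 lay higher, and Fbl, Snu13, Rrp9, Nop10 and Gar1 overlapped.

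Among the C/D proteins, Nop56 (GRCm38 chr2:130274430-130279313, plus strand) was measured at 665, 726 and 741 CPM in WT replicates 1 to 3 and at 594, 587 and 616 in Srrm2+/- replicates 1 to 3. All Srrm2+/- libraries were below all WT libraries. The group means were 710 ± 40.3 and 599 ± 15.0 CPM (SD, n = 3), or 84.3% of WT. The log2 fold change was -0.25 (SE 0.05, 95% interval -0.36 to -0.14, adjusted p = 0.00624). Its scaffold partner Nop58 (chr1:59684971-59719044, plus strand) was at 808, 792 and 824 CPM in WT and 774, 743 and 741 in Srrm2+/-. Its groups also did not overlap, yet the difference was smaller, with Srrm2+/- at 93.1% of WT. The log2 fold change was -0.10 (SE 0.04, interval -0.19 to -0.02), which missed the threshold in edgeR (adjusted p = 0.0837) and passed it in DESeq2 (adjusted p = 0.0413) and limma voom (adjusted p = 0.0473).

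Fbl, the methyltransferase of the C/D particle (chr7:28169710-28179269, plus strand), was at 147, 159 and 151 CPM in WT and 157, 160 and 165 in Srrm2+/-. These ranges overlapped, and the log2 fold change was 0.08 (SE 0.04, interval -0.02 to 0.18, adjusted p = 0.210). Snu13, which nucleates the particle and also binds U4 snRNA (chr15:82040525-82047598, minus strand), was at 154, 150 and 148 CPM in WT and 154, 160 and 153 in Srrm2+/-. The fold change on the log2 scale was 0.05 (SE 0.04, interval -0.04 to 0.13, adjusted p = 0.411). For both genes the point estimate lay on the higher side, and the intervals did not reach the change measured in Nop56. Rrp9, the protein that marks the U3 particle (chr9:106475963-106485424, plus strand), was at 139, 129 and 138 CPM in WT and 130, 126 and 129 in Srrm2+/-. Its groups overlapped, with Srrm2+/- at 94.9% of WT and a log2 fold change of -0.08 (SE 0.04, interval -0.17 to 0.02, adjusted p = 0.215).

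Among the H/ACA proteins, Dkc1, the pseudouridine synthase (chrX:75095854-75109777, plus strand), showed the largest fall of the 10 genes. It was measured at 401, 404 and 423 CPM in WT and 319, 295 and 314 in Srrm2+/-, with no overlap. The means were 409 ± 11.7 and 309 ± 12.6 CPM (SD, n = 3), or 75.5% of WT. The log2 fold change was -0.41 (SE 0.04, interval -0.51 to -0.31, adjusted p = 0.000240). Naf1, which carries dyskerin and the other core proteins to the nascent RNA (chr8:66860217-66890564, plus strand), went the other way. It was at 28.5, 27.7 and 28.9 CPM in WT and 35.7, 33.0 and 38.6 in Srrm2+/-, so every Srrm2+/- library was above every WT library. Its mean rose from 28.4 ± 0.605 to 35.8 ± 2.79 CPM, or 126% of WT, with a log2 fold change of 0.34 (SE 0.06, interval 0.19 to 0.48, adjusted p = 0.00425).

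Nhp2, an RNA-binding core protein (chr11:51619735-51623714, plus strand), was at 207, 218 and 229 CPM in WT and 245, 243 and 238 in Srrm2+/-. The groups did not overlap, and the log2 fold change was 0.15 (SE 0.04, interval 0.05 to 0.25, adjusted p = 0.0397). This call was the least firm of the 4. It was lost when WT replicate 1 (0.11, edgeR adjusted p = 0.107), WT replicate 2 (0.15, 0.0951), Srrm2+/- replicate 1 (0.14, 0.0969), Srrm2+/- replicate 2 (0.15, 0.101) or Srrm2+/- replicate 3 (0.16, 0.0724) was left out. Nop10, the smallest core protein (chr2:112261926-112263269, plus strand), was at 68.0, 70.1 and 64.3 CPM in WT and 66.3, 69.7 and 70.5 in Srrm2+/-. Its ranges overlapped and its log2 fold change was 0.03 (SE 0.05, interval -0.08 to 0.13, adjusted p = 0.707), turning to -0.00296 without WT replicate 3. Gar1, which takes the place of Naf1 in the mature particle (chr3:129824912-129831396, minus strand), was at 21.6, 20.7 and 23.5 CPM in WT and 23.2, 22.1 and 25.3 in Srrm2+/-. Its groups overlapped, with a log2 fold change of 0.10 (SE 0.07, interval -0.05 to 0.26, adjusted p = 0.329).

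**Figure D2:**
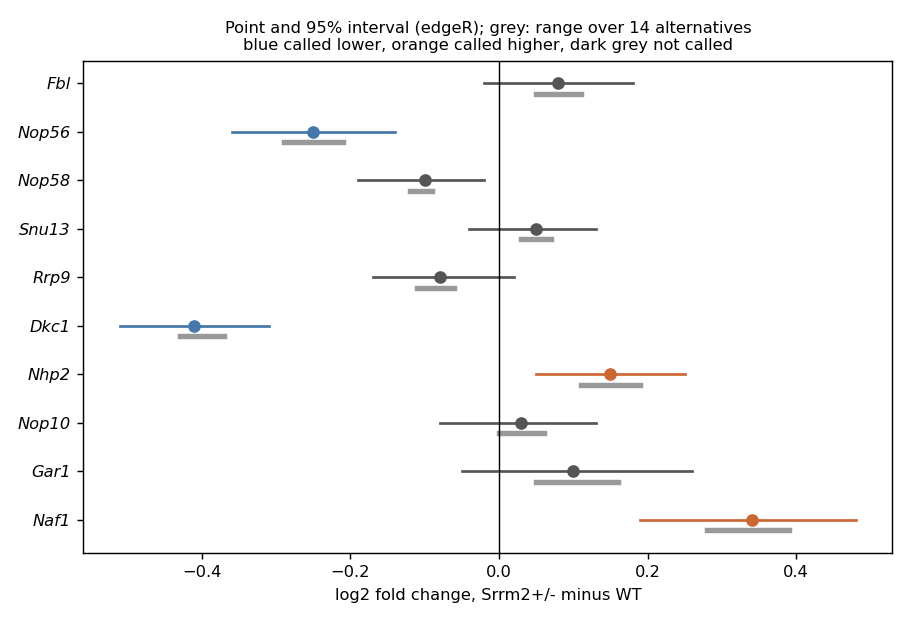
Log2 fold change of each snoRNP gene, Srrm2+/- minus WT, with its 95% interval from edgeR (points and thin lines), and the range over 14 alternative settings below it (thick grey lines). Dkc1 at -0.41 and Nop56 at -0.25 lay left of 0 and Naf1 at 0.34 and Nhp2 at 0.15 lay right of it, with their ranges on the same side.

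Proportions between partners of the same particle were also compared. Ratios of counts within 1 library do not depend on library scaling, and 13 such ratios were formed, 6 among the C/D core genes, 6 among the H/ACA core genes and Naf1 to Gar1. The ratio of Dkc1 to Nhp2 counts was 1.94, 1.86 and 1.84 in WT and 1.30, 1.21 and 1.32 in Srrm2+/-. The ratio was lower in each Srrm2+/- library than in any WT library. The ratio of Dkc1 to Gar1 went from 18.7 ± 0.766 to 13.1 ± 0.676, and that of Dkc1 to Nop10 from 6.08 ± 0.433 to 4.49 ± 0.290 (SD, n = 3). In the C/D particle, the ratio of Nop56 to Snu13 was 4.31, 4.84 and 5.02 in WT and 3.85, 3.68 and 4.01 in Srrm2+/-. The ratio of Fbl to Nop56 was 0.215 ± 0.00906 in WT and 0.269 ± 0.00396 in Srrm2+/-. For the exchange pair, the ratio of Naf1 to Gar1 was 1.32, 1.34 and 1.23 in WT and 1.54, 1.49 and 1.52 in Srrm2+/-. In all, 8 of 13 ratios had groups that did not overlap, each with a two-sided exact permutation p of 0.1, the smallest that 3 libraries against 3 allow (0.163 adjusted over the 13), so no ratio could pass a threshold of 0.05. These ratios reuse the same genes, 3 of the 8 holding Dkc1, and of single genes 41.4% had groups that did not overlap. The ratios that overlapped were Fbl to Snu13, Nop56 to Nop58, Nhp2 to Nop10, Nhp2 to Gar1 and Nop10 to Gar1, with exact p of 0.7, 0.2, 0.3, 0.6 and 0.6.

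**Figure D3:**
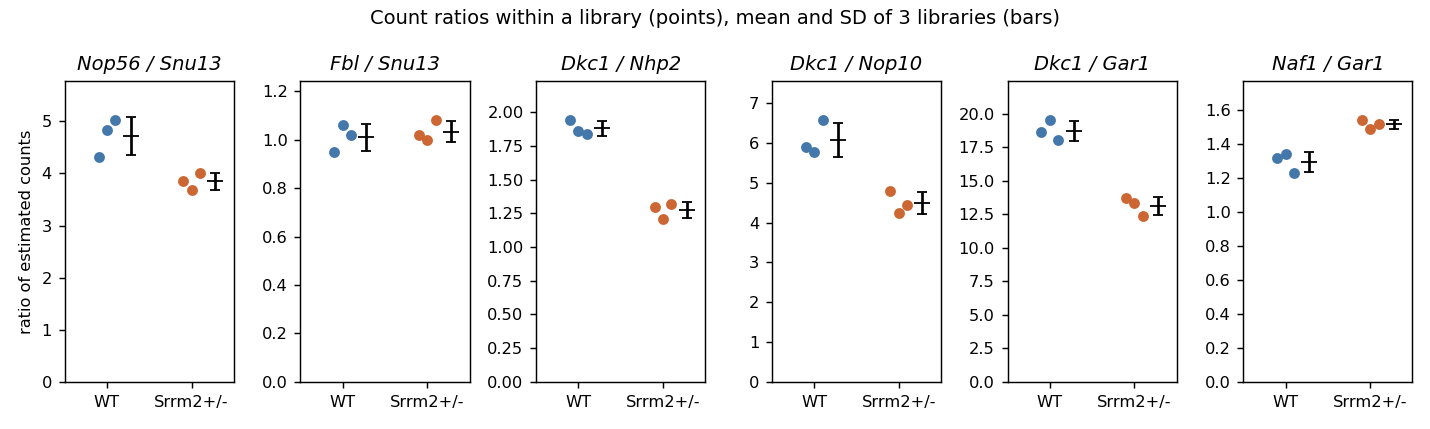
Ratios of estimated counts between partner genes within each library (points), with the mean and SD of 3 libraries per genotype (bars), each axis from 0. The 3 ratios with Dkc1 over Nhp2, Nop10 or Gar1 lay lower in all Srrm2+/- libraries, the ratio of Naf1 to Gar1 lay higher, and that of Fbl to Snu13 overlapped.

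Levels of different genes can be compared only per length. On that scale Nhp2 led in WT at 209 ± 10.7 RPKM (per kilobase of the longest annotated transcript, SD, n = 3), followed by Nop56 at 196 ± 11.1, and these neighbours did not differ beyond their spread. Dkc1 stood next at 146 ± 4.18 RPKM. Nop58 at 85.0 ± 1.68 and Rrp9 at 84.0 ± 3.24 could not be ordered, nor could Fbl at 63.1 ± 2.55 and Nop10 at 60.9 ± 2.65, with Snu13 between these pairs at 72.5 ± 1.66. Gar1 at 17.3 ± 1.13 and Naf1 at 9.48 ± 0.202 RPKM were the lowest. In Srrm2+/-, Dkc1 was at 110 ± 4.48, Nop56 at 165 ± 4.13, Nhp2 at 232 ± 3.48 and Naf1 at 12.0 ± 0.932 RPKM. The length used matters for this order. With the longest protein-coding transcript, Nop56 in WT was at 378 ± 21.5 and Fbl at 127 ± 5.13 RPKM. On that length Nop56 led in WT, above Nhp2 at 209 ± 10.7 RPKM. Nop58 stayed at 85.0 ± 1.68 RPKM, since its longest transcript of 9507 bases is also its longest protein-coding transcript. The place of Nop58 thus rests on that length under either setting, although its WT mean of 808 CPM was above the 710 CPM of Nop56.

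The RNAs of the particles were set beside the mRNAs of their proteins. The classes below hold only snoRNA genes whose symbol names the class. Another 131 tested snoRNA genes have no such symbol and are in none of these counts and sums. Of them, 50 (38.2%) were lower and 1 was higher. The sum over all 1341 snoRNA genes without such a symbol, tested or not, was 72.2% of WT. Among the tested ones with under 5% of 31-base words in other genes, 11 of 57 were lower (19.3%). Of 37 tested genes named as H/ACA snoRNAs, 30 (81.1%) were lower in Srrm2+/-, beside 11.7% of all tested genes, and their median log2 fold change was -1.16. Over all 41 genes so named, tested or not, the sum was 1571, 1917 and 1542 CPM in WT. In Srrm2+/- it was 1036, 1343 and 1051, or 68.2% of the WT mean, without overlap. Of the 4 H/ACA core protein genes, Dkc1 was lower, Nhp2 was higher and Nop10 and Gar1 did not pass the test, with a median log2 fold change of 0.07. Many snoRNA genes share sequence with host or sister genes, between which the counting divides reads. Of the 7 tested H/ACA genes with under 5% of their 31-base words in other genes, 5 were lower. The sum over all 8 such genes, tested or not, was 60.3% of WT.

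C/D snoRNA genes other than U3 were called lower in 11 of 42 cases (26.2%, beside 11.7% of all tested genes), with a median log2 fold change of -0.33. Over all 97 such genes, tested or not, the sum was 577, 633 and 436 CPM in WT. In Srrm2+/- it was 336, 452 and 334, or 68.1% of the WT mean. WT replicate 3 lay below Srrm2+/- replicate 2. With under 5% shared words, 5 of 30 tested genes were lower (16.7%, nearer to the 11.7% of all genes). The sum over all 36 such genes, tested or not, was 78.8% of WT. The 4 C/D core protein genes had a median log2 fold change of -0.03, with Nop56 the called one. U3, which guides early cleavages of the ribosomal RNA precursor, was lower for 4 of its 5 tested genes, beside 11.7% of all tested genes. Its sum was 1895, 2523 and 1595 CPM in WT and 753, 796 and 1083 in Srrm2+/-. That is 43.8% of WT, while Rrp9, the protein of the same particle, was at 94.9%. None of the 5 U3 genes had under 5% shared words, so the 5 may not be separate observations. Short RNAs are incompletely recovered in total RNA libraries of this kind, and the part of recovery in the snoRNA levels was not tested.

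**Figure D4:**
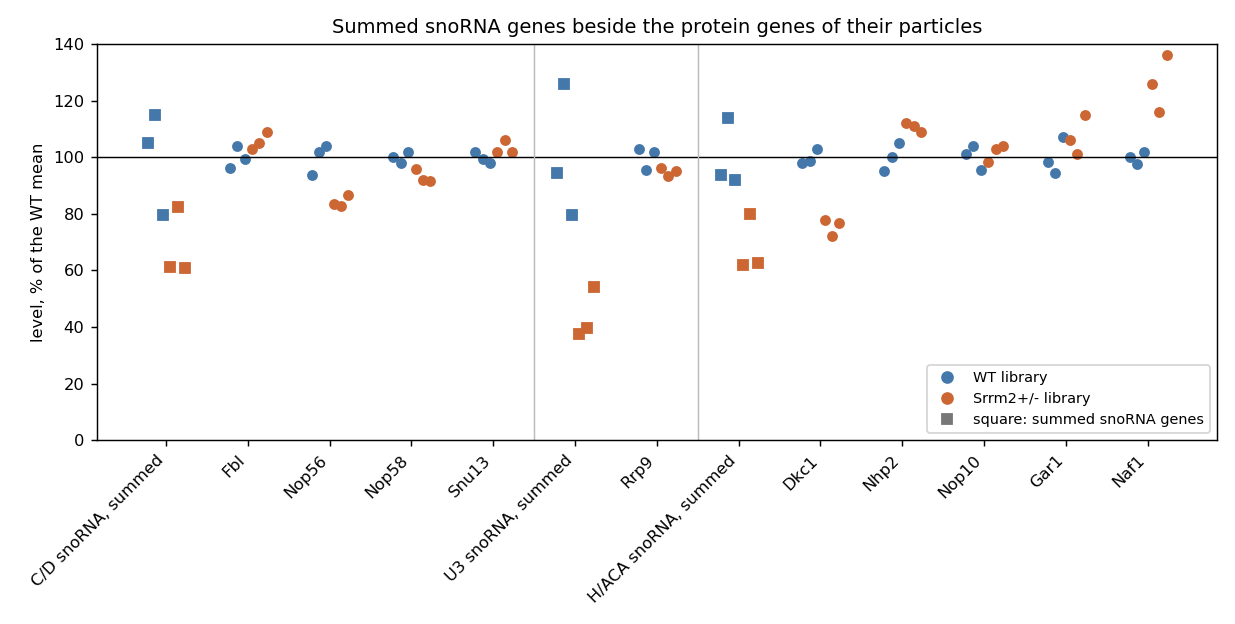
Level in each library as a percent of the WT mean for summed snoRNA genes classed by symbol (squares) and for the protein genes of the same particle (circles), in blue for WT and orange for Srrm2+/-. snoRNA genes without a class in the symbol are not in the sums. Summed H/ACA and U3 RNAs lay at 68.2% and 43.8% of WT on average, Dkc1 at 75.5%, Nop56 at 84.3% and Rrp9 at 94.9%, while Nhp2 at 111% and Naf1 at 126% lay above WT.

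Several snoRNP genes are themselves hosts of snoRNAs. On the same strand, 10 annotated snoRNA genes lay within Nop56 (5), Nop58 (4) and Dkc1 (1), and 7 of them had counts enough to be tested. The reading of their counts depends on which letters they share with the host, and these letters are not marked below. The sequences of the 7 are shown with their boxes. They are GENCODE release M21 transcripts on GRCm38, plus strand. Capitals mark the ATGATG core of the C box and the CTGA of the D box, or, in an H/ACA RNA, the ACA that lies 3 bases from the 3′ end, each found by a search of the letters.
Gm24451 (Nop56, chr2:130276237-130276369): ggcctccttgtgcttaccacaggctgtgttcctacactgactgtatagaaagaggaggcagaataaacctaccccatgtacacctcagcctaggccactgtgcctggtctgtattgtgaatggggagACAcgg
Gm23650 (Nop56, chr2:130277697-130277766): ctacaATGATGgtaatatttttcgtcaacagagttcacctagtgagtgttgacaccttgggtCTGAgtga
Snord110 (Nop56, chr2:130275506-130275573): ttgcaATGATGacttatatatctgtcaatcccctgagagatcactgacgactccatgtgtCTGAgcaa
Snord70 (Nop58, chr1:59691934-59692020): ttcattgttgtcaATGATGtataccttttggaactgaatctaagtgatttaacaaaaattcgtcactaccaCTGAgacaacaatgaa
Snord11 (Nop58, chr1:59704790-59704873): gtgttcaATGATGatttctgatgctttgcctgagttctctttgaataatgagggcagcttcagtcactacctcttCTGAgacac
Gm26287 (Nop58, chr1:59704258-59704338): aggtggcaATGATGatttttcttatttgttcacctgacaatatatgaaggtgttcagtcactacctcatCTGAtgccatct
Gm25520 (Dkc1, chrX:75101409-75101526): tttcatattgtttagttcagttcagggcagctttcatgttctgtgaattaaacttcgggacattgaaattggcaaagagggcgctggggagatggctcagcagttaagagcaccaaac

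Of the 7 tested RNAs within these hosts, 2 were called lower, both in Nop56. Over all tested genes 11.7% were lower. Of the 131 tested snoRNA genes without a box name in the symbol, which include both, 38.2% were lower. Within Nop56, the H/ACA-type Gm24451 had 365, 291 and 107 counts in WT and 76, 58 and 70 in Srrm2+/-, and the fitted difference was -2.15 on the log2 scale (SE 0.38, adjusted p = 0.00367). The C/D-type Gm23650 had 57, 73 and 99 counts in WT and 11, 13 and 27 in Srrm2+/-, and the fitted difference was -2.41 on the log2 scale (SE 0.40, adjusted p = 0.00240). Both fell further than Nop56 itself, and both share sequence with it. Of the 31-base words of Gm23650, 100% occur in retained-intron transcripts of Nop56, and of those of Gm24451 38.8% do. The third tested RNA of this gene, Snord110, shares 0% of its words with other genes, and its counts were 16, 14 and 14 in WT and 21, 21 and 17 in Srrm2+/- (log2 fold change 0.16, SE 0.31, adjusted p = 0.763). Both of the Nop56 RNAs called lower were thus ones that share letters with unspliced host RNA, and the part of shared reads in their fall was not tested.

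Within Nop58, Snord70 had 93, 92 and 101 counts in WT and 98, 115 and 124 in Srrm2+/-, which on the scaled libraries is a log2 fold change of -0.02 (SE 0.18, adjusted p = 0.958). Snord11 had 48, 63 and 35 counts in WT and 40, 46 and 42 in Srrm2+/- (-0.44, SE 0.25, adjusted p = 0.239), and Gm26287 had 55, 62 and 70 in WT and 61, 66 and 65 in Srrm2+/- (-0.22, SE 0.19, adjusted p = 0.465). None of these 3 shares words with other genes, and none passed the test. Gm25520 in Dkc1, in which neither set of boxes was found, had 16, 11 and 7 counts in WT and 16, 14 and 15 in Srrm2+/- (0.15, SE 0.40, adjusted p = 0.833), while its host fell. At counts this low the standard errors are several times those of the host genes, and a change of the size seen in Nop56 or Dkc1 could go undetected. Snord57 and Gm23187 in Nop56 and Gm26293 in Nop58 had 0 or 1 counts in each library and were not tested. All of their words occur in the host.

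**Figure D5:**
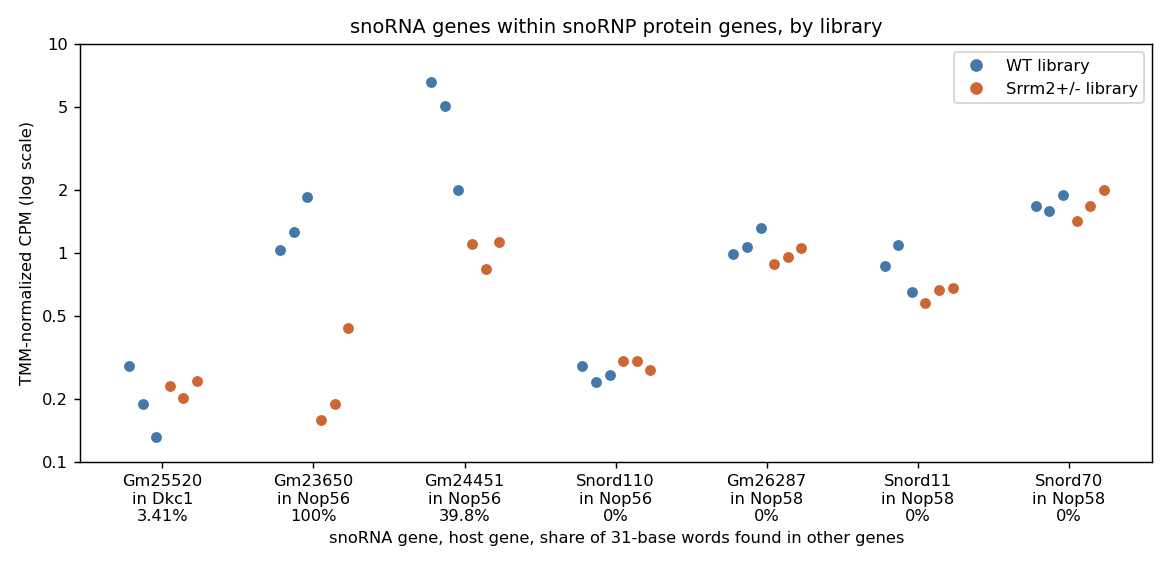
Normalized CPM (log scale) of the 7 tested snoRNA genes within Dkc1, Nop56 and Nop58 in 3 WT (blue) and 3 Srrm2+/- (orange) libraries, with the percent of their 31-base words found in other genes below the name. Gm23650 (100%) and Gm24451 (39.8%) lay lower in all Srrm2+/- libraries, and the other 5 overlapped between the genotypes.

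The factors that build snoRNPs were read from lists of the wider pathway. Of 11 genes of the R2TP complex, HSP90 and related assembly factors, 1 was lower and 10 did not pass the test, with a median log2 fold change of 0.05. Beside this, 11.7% of all tested genes were called lower. The lower gene was Hsp90aa1, the inducible HSP90 chaperone, at 10739 ± 144 CPM in WT and 8991 ± 40.1 in Srrm2+/- (-0.26, SE 0.03, adjusted p = 0.000653). Without WT replicate 1, 2 genes of this list passed, and 3 did when testing was limited to genes with 1 CPM or more throughout at least 1 group. Of 15 genes of snoRNA maturation and trafficking, 1 was higher and 1 was lower, beside 25.3% of all tested genes called in either direction. Parn, a deadenylase that trims 3′ ends of H/ACA RNAs, went from 45.2 ± 1.78 to 52.2 ± 0.863 CPM (0.21, SE 0.04, adjusted p = 0.00850). Tent4b, a poly(A) polymerase that marks such ends, went from 58.1 ± 1.23 to 53.0 ± 1.60 CPM (-0.13, SE 0.04, adjusted p = 0.0449), a call that was lost whenever any 1 of the 6 libraries was left out.

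The U3 particle acts in the small subunit processome, and 30 of 32 listed genes of that complex were tested. Of these, 5 were higher and 25 did not pass the test, with a median log2 fold change of 0.03. That share is near the 13.6% of all tested genes called higher and is not a result about the complex. Utp14a went from 174 ± 6.41 to 206 ± 9.21 CPM (0.24, SE 0.05, adjusted p = 0.00523), and Rrp7a from 80.0 ± 2.02 to 94.5 ± 3.04 CPM (0.24, SE 0.04, adjusted p = 0.00273). Without Srrm2+/- replicate 2 the count was 4, and without each of the other 5 libraries in turn it was 2 or 3. Among 25 genes of RNA polymerase I and the nucleolus, 0 passed in edgeR, beside 25.3% of all tested genes. Of the 25, 4 had an unadjusted p under 0.05 in edgeR, and 1 passed in DESeq2 and 1 in limma voom.

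Proteins that resemble or share partners with the snoRNP genes were also measured. Rpl7a, a ribosomal relative of Snu13 and Nhp2, went from 1395 ± 56.1 to 1687 ± 18.1 CPM (0.27, SE 0.04, adjusted p = 0.00147). Prpf31, the relative of Nop56 and Nop58 that binds Snu13 on U4 snRNA, went from 122 ± 2.43 to 139 ± 6.15 CPM (0.19, SE 0.04, adjusted p = 0.0112). It was the called gene among 4 U4 partners, a share near the 25.3% of all tested genes. Secisbp2, which shares the RNA-binding fold of Snu13, went from 34.5 ± 0.479 to 29.3 ± 0.684 CPM (-0.24, SE 0.04, adjusted p = 0.00432). All 3 tested genes of this list passed, beside 25.3% of all tested genes, and so short a list gives no result about such relatives. The remaining listed gene, Fbll1, had 1 to 6 counts per library and was not tested.

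Dyskerin, Nhp2, Nop10 and Gar1 also hold the telomerase RNA Terc, an H/ACA-type RNA. Terc was at 1.11 ± 0.567 CPM in WT and 2.06 ± 0.619 in Srrm2+/-, with overlapping groups and a log2 fold change of 0.88 (SE 0.36, adjusted p = 0.113). Its direction was opposite to the median of the H/ACA snoRNA genes, but the difference between them was not tested. It passed in DESeq2 (0.89, adjusted p = 0.0390) and in edgeR without WT replicate 2 (1.36, adjusted p = 0.0256). Tert, the catalytic subunit of telomerase, was at 8.43 ± 0.308 and 9.06 ± 0.291 CPM (0.10, SE 0.08, adjusted p = 0.369). Of the 3 telomerase genes, 0 passed in edgeR, 1 had an unadjusted p under 0.05, 1 passed in DESeq2 and 0 in limma voom.

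MYC proteins are known activators of ribosome production genes, snoRNP genes among them. Myc was at 3.47 ± 0.530 CPM in WT and 9.77 ± 0.687 in Srrm2+/-, a log2 fold change of 1.49 (SE 0.13, adjusted p = 5.42e-05). Mycn, its relative known from embryonic stem cells, was at 115 ± 6.52 and 125 ± 8.46 (0.12, SE 0.06, adjusted p = 0.185). The E-box CACGTG, which reads the same on both strands, lay in 2349 of 32851 RefSeq promoters (7.15%; 250 bases before to 50 after the start, GRCm38) and in 0 of the 8 snoRNP promoters with an entry. Fbl and Naf1 had no entry. With the motif in 7.15% of promoters, 0 of 8 is a likely count in any case, and sites outside this window were not searched. The count therefore cannot tell whether MYC proteins bind these genes.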

How the data were processed

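Total RNA libraries (stranded, paired-end) of 3 WT and 3 Srrm2+/- batches were used, grouped by their sample titles. The authors ran kallisto 0.46.1 against GENCODE release M24 transcripts (mm10, which is GRCm38) and deposited gene-level estimated counts without normalization. Where transcripts share sequence, kallisto splits their reads by estimate.

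Counts were rounded. GENCODE release M21 (GRCm38) supplied symbols and positions and matched 42156 of 42450 identifiers. Transcript lengths, shared 31-base words and retained-intron matches were also computed on M21, so they may differ from those of the release counted against. Genes passing filterByExpr (minimum count 10, minimum total 15) were tested with edgeR 4.0.16 (TMM, glmQLFit, glmQLFTest, two-sided, genotype as the sole term), with Benjamini-Hochberg adjustment over 18905 genes and calls at an adjusted p under 0.05. Every adjusted p not otherwise named is from this fit. SE is the log2 fold change divided by the square root of F. CPM used TMM-scaled library sizes. Count ratios were compared by exact permutation tests. snoRNA genes were classed by symbol (Snord, Snora, Rnu3), and those with other symbols were left out of the classes.

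Alternatives were RLE and upper quartile scaling, removal of short, ribosomal and mitochondrial RNA before TMM, DESeq2 1.42.0, limma voom 3.58.1, filters of at least 1 count or 1 CPM, a replicate block, each library left out, and a threshold of 0.01. RPKM on the longest protein-coding transcript was chosen after seeing the data.

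The 10 genes and the pathway lists were chosen with earlier results of these data known. Genes named were the 10, Srrm2, Myc, Mycn, Tert, Terc, snoRNA genes within the 10, and in each pathway list the called genes with the largest rise and fall, up to 2 each, given a mean log2 CPM at or above 1. On simulated counts for the 18905 genes of this comparison, 49% of 100 genes changed 1.5-fold and 60% of 100 changed 2-fold were called, and 9.92% of calls were false. That false share is above the threshold of 0.05. In the data a far larger share of genes was called (25.3%), so these rates do not carry over to the data or to the 10 genes.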

Additional observations from a re-analysis of the deposited data

How the results depend on the processing

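Dkc1 (-0.43 to -0.37), Nop56 (-0.29 to -0.21) and Naf1 (0.28 to 0.39) kept their direction and call under all 14 alternatives, with edgeR, DESeq2 or limma adjusted p of at most 0.00158, 0.0311 and 0.0178. Nhp2 (0.11 to 0.19) kept its direction and lost its call in 6 of 14. Deviations of libraries with the same replicate number were hardly correlated (-0.03 for each number), which does not settle pairing for single genes. With a replicate block 4166 genes were called beside 4781, Nhp2 missed the threshold (0.15, edgeR adjusted p = 0.0696), 1 snoRNP gene was called higher beside 2, and 3 small subunit processome genes passed beside 5. With 1 library left out, 1 to 2 snoRNP genes were called higher. At an adjusted p under 0.01, 2779 genes were called (1574 higher, 1205 lower), 1 snoRNP gene was higher, 7 pathway genes passed beside 12, and 9 C/D and U3 snoRNA genes were lower beside 15. Directions turned for genes that were never called. They were Nop10 (-0.00296 without WT replicate 3), Snord70 (0.06 without WT replicate 3, 0.10 without Srrm2+/- replicate 1, -0.15 to 0.10 with 1 library left out) and Gm25520 (-0.08 without WT replicate 3, -0.08 to 0.48 with 1 library left out). The cause of these changes was not tested. The median log2 fold change of all genes lay between -0.004 and 0.010 under every setting run. Low counts limit what can be seen for the RNAs within Nop58 and Dkc1.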
